A study of Homo sapiens with 24 samples.

Results

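The 10 genes described here supply peptides to class I major histocompatibility molecules: TAP1, TAP2, TAPBP, ERAP1, ERAP2, PSMB8, PSMB9, PSMB10, PSME1 and PSME2. They were chosen by name, through the probes that the platform annotation gives to them, and 20 of the 47323 probes on the array belong to them. All 10 were read from a probe that passed the detection filter, among 9533 genes measured. The samples were Ramos, a line from human Burkitt lymphoma, and 5 derivatives of it named Dox100, Dox250, Dox500, Dox750 and Dox1000. These grew in medium with 100, 250, 500, 750 and 1000 nM doxorubicin, a drug that poisons topoisomerase II, and each was raised from the line before it. Ramos grew in the same medium without the drug, so that selection for resistance and presence of the drug at harvest cannot be told apart. Each line was measured on 4 arrays, made from 4 cultures split from 1 culture. The p-values therefore measure only the spread between split cultures, which the labels describe as technical replicates, and each line is a single lineage. In RNA from whole cultures, fewer cells with a transcript and less of it per cell cannot be told apart.

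Class I molecules show peptides from the cell's own proteins to cytotoxic T cells. The peptides are cut by the proteasome, whose catalytic subunits PSMB5, PSMB6 and PSMB7 can be replaced by PSMB8, PSMB9 and PSMB10 to form the immunoproteasome, the form common in lymphoid cells and induced by interferon gamma. PSME1 and PSME2 form the PA28 ring that opens the proteasome and favours release of peptides. TAP1 and TAP2 together make the transporter that carries peptides into the endoplasmic reticulum. There the chaperone tapasin, from TAPBP, holds the empty class I molecule at the transporter, and the aminopeptidases ERAP1 and ERAP2 trim peptides to the length that class I molecules bind. TAP2, PSMB8, TAP1 and PSMB9 are consecutive protein-coding genes on chromosome 6, inside the class II region. TAPBP lies on the same chromosome between RGL2 and ZBTB22, ERAP1 and ERAP2 are neighbours on chromosome 5, PSME1 and PSME2 lie on chromosome 14 with EMC9 between them, and PSMB10 is on chromosome 16.

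The DNA before the transcription starts is shown first, because several of these genes are textbook targets of interferon and carry its binding motif there. The sequences are RefSeq's for GRCh38.p14, and the 10 genes have 14 start sites in that table. TAP1 and PSMB9 start from opposite strands of 1 shared stretch, 487 bases from start to start, so their upstream windows of 250 bases overlap by 13 bases. TAP1 is chr6:32853705-32853954 on the minus strand and PSMB9 is chr6:32853942-32854191 on the plus strand. Each line reads 5′ to 3′ on the gene's own strand and ends at the base before the start. Capitals mark matches, on either strand, to 4 motifs: GAAANNGAAA, the core of the interferon-stimulated response element, TTCNNNGAA, the gamma-activated site, the NF-kB site (GGGA, any base, TTTCC), and GGGCGG, the GC box bound by Sp1.
TAP1: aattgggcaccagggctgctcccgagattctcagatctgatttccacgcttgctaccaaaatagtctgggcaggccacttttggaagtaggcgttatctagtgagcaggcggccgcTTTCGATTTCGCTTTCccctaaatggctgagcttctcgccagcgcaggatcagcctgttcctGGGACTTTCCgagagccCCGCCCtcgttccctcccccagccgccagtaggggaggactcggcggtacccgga
PSMB9: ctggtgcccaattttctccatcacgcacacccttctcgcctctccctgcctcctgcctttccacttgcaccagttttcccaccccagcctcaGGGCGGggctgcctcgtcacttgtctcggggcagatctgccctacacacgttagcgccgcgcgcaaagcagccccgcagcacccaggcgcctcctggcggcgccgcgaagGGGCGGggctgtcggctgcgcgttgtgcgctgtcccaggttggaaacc
The TAP1 window holds 2 overlapping response element cores on its minus strand, from 134 to 119 bases before the start. It also holds the NF-kB match from 72 to 63 bases and a GC box from 55 to 50 bases before the start. The PSMB9 window holds GC boxes and no match to the other 3 motifs.

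In 5 of the 10 genes the window of the first listed start held the response element core, and 3.07% of the 27305 genes in the table do. A second start of ERAP2 also had it. The last 60 bases before the start are shown for the genes other than TAP1 with a core, since they include genes that rose, fell and did neither. Their positions are chr6:32838740-32838799 for TAP2, chr6:33314079-33314138 for TAPBP, chr16:67936851-67936910 for PSMB10 and chr14:24146611-24146670 for PSME2, all on the minus strand. The window of the second start of ERAP2 is chr5:96876440-96876499 on the plus strand. Capitals mark the same motifs.
TAP2: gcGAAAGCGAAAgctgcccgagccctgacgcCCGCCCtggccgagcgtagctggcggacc
TAPBP: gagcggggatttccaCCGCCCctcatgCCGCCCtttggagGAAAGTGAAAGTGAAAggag
PSMB10: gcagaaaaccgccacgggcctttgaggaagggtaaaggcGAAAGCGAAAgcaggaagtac
PSME2: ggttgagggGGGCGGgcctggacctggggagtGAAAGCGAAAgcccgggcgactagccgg
ERAP2: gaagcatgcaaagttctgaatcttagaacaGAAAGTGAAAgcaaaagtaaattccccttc
TAPBP carries 2 cores that overlap by their shared GAAA, and TAP2, PSMB10 and PSME2 carry the same GAAAGCGAAA. The gamma-activated site was matched in no first window and at the second starts of TAP1 and PSMB8, and 6.78% of all genes have it in their first window. The searched form of the NF-kB site was matched only at TAP1 among these genes (0.546% of all first windows). Other forms of the site were not searched. The TAPBP stretch above holds a run that differs from the searched form only by a G in place of its fixed A. A GC box was matched in the first window of 6 of the 10 genes (42.3% of genes). No motif but the GC box was matched for PSME1, and none of the 4 for ERAP1. These matches are letters in fixed windows, and binding was not measured.

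Values below are log2 of background-corrected, quantile-normalized bead intensity, and changes are differences on that log2 scale ± SE from limma over all 24 arrays, with n = 4 per line. The threshold was an adjusted p of 0.05, with the adjustment over 15765 probes. Levels are compared between lines for 1 probe and not between probes. Median intensity ran from 121.1 to 163.4 per array, 14158 to 15564 probes were detected per array, and the number of arrays limits the precision. Markers of B cells were detected for 5 of 6 genes with a probe (MS4A1, CD79A, CD79B, CD22 and BLK, with PAX5 undetected on all 24 arrays), and all 4 germinal centre markers were detected. Of markers of other cells, 1 of 4 T cell genes (CD3E), 1 of 6 myeloid or dendritic genes (CD68) and 1 of 5 stromal or epithelial genes (DCN) passed the filter. CD3D, CSF1R, ITGAX, FCER1G, COL1A1 and EPCAM were undetected on all 24 arrays. DCN was undetected in Ramos, Dox100 and Dox250 and detected on all 4 arrays of Dox500, Dox750 and Dox1000, where it was at least 1.91-fold, 1.92-fold and 3.73-fold higher than Ramos (adjusted p = 2.93e-12, 2.28e-12 and 9.69e-16). The DCN probe entered the tests through Dox500, Dox750 and Dox1000 alone, so these p-values are no separate support. The summed normalized intensity of the 5 stromal or epithelial genes ran from 135 to 152 in Ramos, 138 to 164 in Dox100, 128 to 162 in Dox250, 195 to 222 in Dox500, 192 to 229 in Dox750 and 266 to 324 in Dox1000. The summed B cell markers ran from 21000 to 24000 in Ramos and from 25900 to 30400 in the resistant lines, with no overlap. The single genes did not move together. In Dox250 CD79A, CD79B and MS4A1 were higher (0.56, 0.48 and 1.01) and CD22 and BLK lower (-0.55 and -0.61). Summed germinal centre markers ran from 11800 to 12900 in Ramos, 9220 to 10300 in Dox100, 9820 to 10700 in Dox250, 11600 to 12300 in Dox500, 9790 to 11500 in Dox750 and 10800 to 12500 in Dox1000. The part of any of these markers in the results below was not tested.

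**Figure D1:**
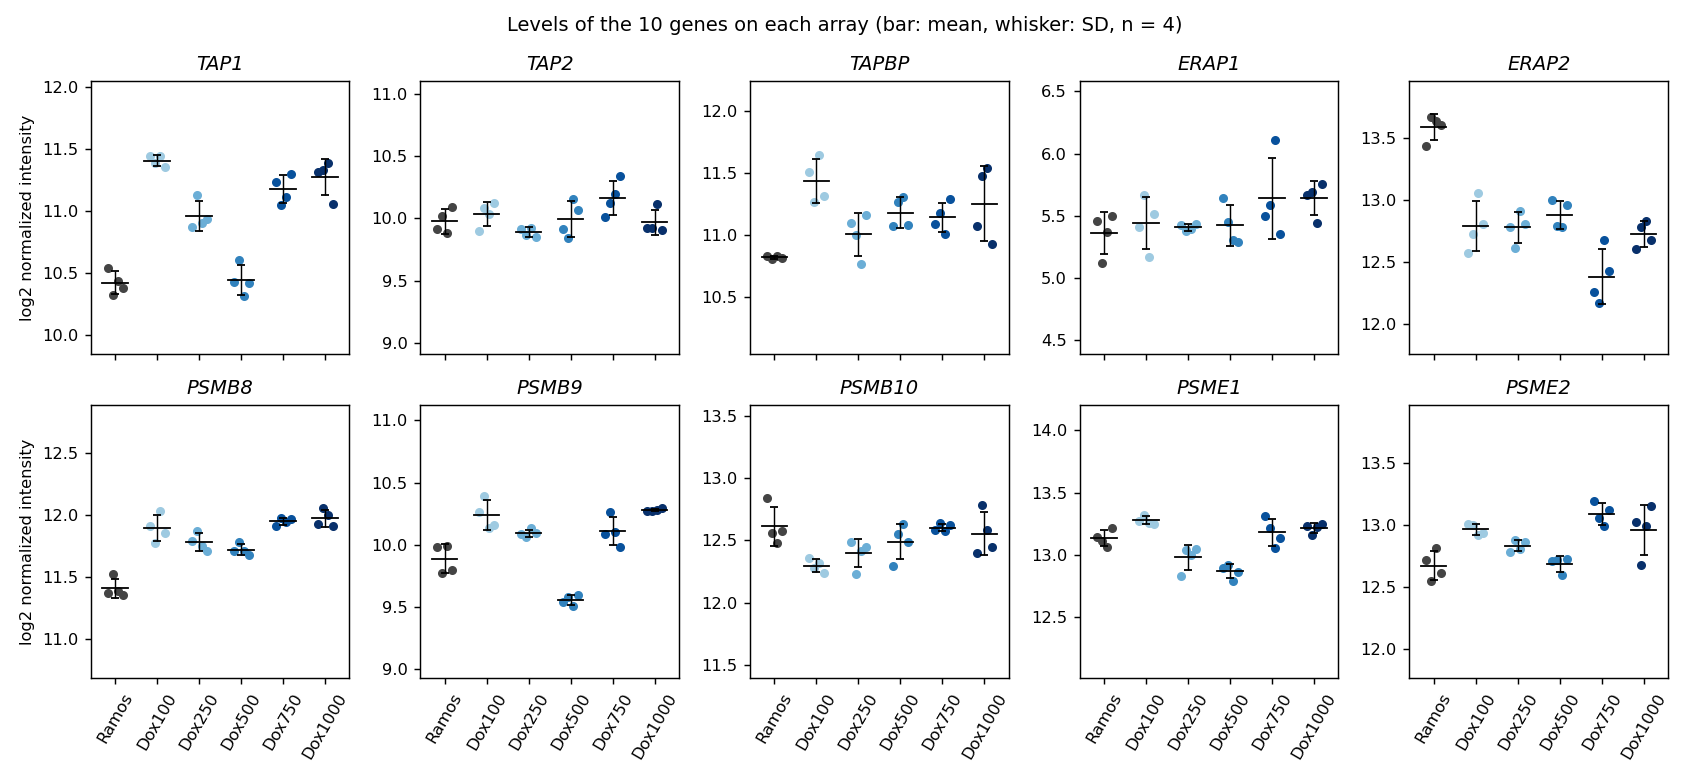
Log2 normalized intensity of the brightest probe of each of the 10 genes (y axis; each panel spans the same number of log2 units around its own centre) on the 4 arrays of each line (x axis; points), with the line mean (bar) and SD (whisker). TAP1 and PSMB9 are low in Dox500 between higher neighbours. PSME1 is lowest in Dox500 but overlaps there with Dox250, ERAP2 is highest in Ramos, and ERAP1 stays near background.

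TAP1, read from its only probe, was higher than Ramos in 4 of the 5 resistant lines and level with Ramos in Dox500. In Ramos its 4 arrays read 10.54, 10.32, 10.44 and 10.38. In Dox100 they read 11.44, 11.39, 11.44 and 11.36, and in Dox250 10.87, 11.13, 10.91 and 10.93. All 8 of these resistant arrays lay above all of Ramos. In Dox500 the arrays read 10.43, 10.61, 10.32 and 10.42, which overlap with Ramos. In Dox750 they read 11.23, 11.05, 11.12 and 11.30, and in Dox1000 11.31, 11.33, 11.38 and 11.06. Both of these lines stood again above every Ramos and Dox500 array. The changes against Ramos were 0.98 ± 0.08 in Dox100 (1.98-fold, adjusted p = 2.14e-09), 0.54 ± 0.08 in Dox250 (adjusted p = 1.57e-05) and 0.02 ± 0.08 in Dox500 (adjusted p = 0.864). They were 0.75 ± 0.08 in Dox750 (adjusted p = 1.22e-07) and 0.85 ± 0.08 in Dox1000 (1.80-fold, adjusted p = 1.81e-08). From line to line TAP1 fell by 0.45 from Dox100 to Dox250 (adjusted p = 0.00103), and the next step, to Dox500, took away a further 0.52 (-0.52, adjusted p = 0.00025). It then rose by 0.73 from Dox500 to Dox750 (adjusted p = 6.27e-06), and the change of 0.10 from Dox750 to Dox1000 did not pass (adjusted p = 0.457). In order of level, Dox100, Dox1000, Dox750 and Dox250 each overlapped with the next, Dox250 stood clear of Dox500, and Dox500 overlapped with Ramos. CD3E, a T cell gene, was detected on 0 of 4 Ramos arrays, 4 of Dox100, 0 of Dox250, 0 of Dox500, 2 of Dox750 and 1 of Dox1000. It was at least 1.30-fold higher than Ramos in Dox100 (adjusted p = 6.89e-08). The CD3E probe entered the tests through Dox100 alone, the line where it was highest, so this p-value is no separate support. Nearer background, it also passed in Dox250, Dox750 and Dox1000 (adjusted p = 0.0327, 5.02e-06 and 0.00022). The summed normalized intensity of the 4 T cell genes ran from 110 to 139 in Ramos, 151 to 209 in Dox100, 128 to 141 in Dox250, 106 to 150 in Dox500, 142 to 159 in Dox750 and 130 to 148 in Dox1000. The part of CD3E in the TAP1 result was not tested.

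TAP2, the other subunit of the transporter, did not pass in any line against Ramos. Its line means ran from 9.89 in Dox250 to 10.17 in Dox750, with Ramos at 9.98, and each resistant line overlapped with Ramos. The largest change was 0.19 ± 0.08 in Dox750 (adjusted p = 0.0623). It passed without Ramos replicate 4 (0.23, adjusted p = 0.0404) or Dox750 replicate 1 (0.24, adjusted p = 0.0281), and with the mean over probes (0.29, adjusted p = 0.0283). It also passed with the authors' deposited log2 values and without background correction (0.17, adjusted p = 0.0413 in both). A second TAP2 probe had changes from 0.14 to 0.40, none of which passed. The difference between the changes of TAP1 and TAP2 was 0.93 in Dox100, 0.63 in Dox250, 0.56 in Dox750 and 0.86 in Dox1000. Each gave p = 0.0286 in a two-sided exact permutation test of 4 against 4 arrays, the smallest p this design allows, and adjusted p = 0.04 over 35 such tests. In Dox500 both genes changed by 0.02 (adjusted p = 1 by the same permutation test).

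TAPBP was higher than Ramos in 4 of 5 lines on its bright probe. In Ramos the arrays read 10.83, 10.81, 10.83 and 10.82, in Dox100 11.51, 11.27, 11.65 and 11.31, and in Dox250 11.10, 11.00, 10.77 and 11.16. Dox100 lay wholly above Ramos and Dox250 did not. Dox500 read 11.07, 11.27, 11.31 and 11.08, Dox750 11.09, 11.18, 11.01 and 11.29, and Dox1000 11.07, 11.48, 11.54 and 10.93, all above Ramos. The change was 0.61 ± 0.12 in Dox100 (adjusted p = 0.000239) and 0.18 ± 0.12 in Dox250 (adjusted p = 0.222), with a fall of 0.43 between these lines (adjusted p = 0.022). It was 0.36 ± 0.12 in Dox500 (adjusted p = 0.018), 0.32 ± 0.12 in Dox750 (adjusted p = 0.0306) and 0.43 ± 0.12 in Dox1000 (adjusted p = 0.00442). The second TAPBP probe, detected on 14 of 24 arrays, gave changes of 0.01, -0.18, -0.30, -0.18 and -0.21 from Dox100 to Dox1000, none of which passed, and the remaining probe was never detected. With the mean over probes the change in Dox500, Dox750 and Dox1000 was 0.03, 0.07 and 0.11 and did not pass, so that these calls rest on 1 of 3 probes. The Dox500 call was also lost without Dox500 replicate 3 (0.32, adjusted p = 0.0565), and the Dox750 call without Ramos replicate 2, 3 or 4 or Dox750 replicate 2 or 4 (0.27 to 0.32, adjusted p = 0.0514 to 0.092). The fall from Dox100 to Dox250 was lost without Dox100 replicate 1 or 3 or Dox250 replicate 3 (adjusted p = 0.0657 to 0.0968).

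**Figure D2:**
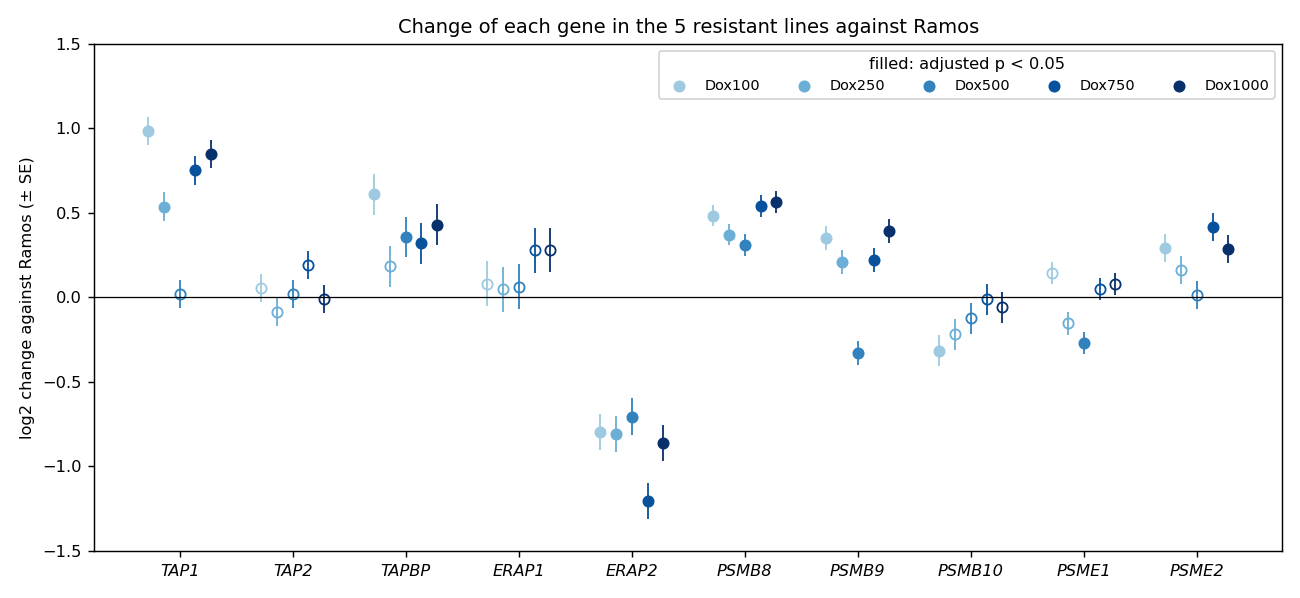
Log2 change against Ramos (y axis, ± SE from limma, n = 4 arrays per line) for each of the 10 genes (x axis) in the 5 resistant lines (colours, light to dark from Dox100 to Dox1000). Filled points passed at an adjusted p under 0.05 and open points did not; PSMB8 is higher and ERAP2 lower in all 5 lines, while TAP1 and PSMB9 drop in Dox500.

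ERAP2 was lower than Ramos in every resistant line, and no resistant array reached the lowest Ramos array. In Ramos it read 13.43, 13.67, 13.63 and 13.60, in Dox100 12.57, 12.72, 13.05 and 12.81, and in Dox250 12.78, 12.61, 12.91 and 12.80. In Dox500 it read 12.99, 12.79, 12.78 and 12.96, in Dox750 12.26, 12.17, 12.67 and 12.42, and in Dox1000 12.60, 12.78, 12.83 and 12.68. The 5 resistant lines thus lay close together, with Dox750 lowest. Against Ramos it fell by 0.80 in Dox100 (adjusted p = 2.38e-06), 0.81 in Dox250 (adjusted p = 1.82e-06) and 0.71 in Dox500 (adjusted p = 1.19e-05), each ± 0.11. It fell by 1.20 ± 0.11 in Dox750, to 0.434 of the Ramos level (adjusted p = 3.5e-09), and by 0.86 ± 0.11 in Dox1000 (adjusted p = 6.04e-07). The second ERAP2 probe gave -0.73, -0.99, -1.06, -0.95 and -0.59 from Dox100 to Dox1000, and all 5 passed. The further fall of 0.50 from Dox500 to Dox750 (adjusted p = 0.00647) was not seen on that probe (0.11, adjusted p = 0.592), and with the mean over probes it was -0.19 (adjusted p = 0.178). Between Dox750 and Dox1000 both probes rose, by 0.34 (adjusted p = 0.0256) and 0.36 (adjusted p = 0.0217). That rise on the brighter probe was lost without Dox750 replicate 1 or 2 or Dox1000 replicate 2 or 3 (0.27 to 0.32, adjusted p = 0.0629 to 0.0985).

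ERAP1, the neighbour of ERAP2, was near background throughout. Its brighter probe was detected on 0 of 4 arrays of Ramos, 1 of Dox100, 0 of Dox250, 1 of Dox500, 1 of Dox750 and 3 of Dox1000, and its other probe was never detected. Line means ran from 5.36 in Ramos to 5.64 in Dox750 and Dox1000, and no comparison passed with all arrays. Leaving out Dox750 replicate 4 or Dox1000 replicate 3 brought the comparison of that line with Ramos under the threshold (adjusted p = 0.0289 and 0.0463). The probe entered the tests through Dox1000 alone, the line with the most detections, and no fold is read from it against Ramos. Its difference from ERAP2 is not read either, since with ERAP1 at background it would restate the fall of ERAP2.

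PSMB8, the chymotrypsin-like subunit of the immunoproteasome, was higher than Ramos in all 5 lines. In Ramos it read 11.37, 11.53, 11.39 and 11.35, in Dox100 11.91, 11.78, 12.03 and 11.86, and in Dox250 11.79, 11.87, 11.75 and 11.71. In Dox500 it read 11.71, 11.78, 11.71 and 11.68, in Dox750 11.91, 11.97, 11.95 and 11.97, and in Dox1000 11.93, 12.06, 12.00 and 11.91. Every resistant array exceeded every Ramos array, and Dox500 was the lowest of the resistant lines. The change was 0.48 ± 0.06 in Dox100 (adjusted p = 1.77e-06), 0.37 in Dox250 (adjusted p = 5.22e-05), 0.31 in Dox500 (adjusted p = 0.000389), 0.54 in Dox750 (adjusted p = 3.02e-07) and 0.56 in Dox1000 (adjusted p = 1.54e-07), with the same SE. All 4 PSMB8 probes were higher than Ramos in all 5 lines. The second brightest passed in 5 lines, the third in 3 (Dox250, Dox750 and Dox1000) and the dimmest in 2 (Dox750 and Dox1000). From Dox250 to Dox500 the third passed as lower (-0.49, adjusted p = 0.00901), and the other probes did not pass (-0.08 to 0.05). In Dox500 the third overlapped with Ramos (0.09, adjusted p = 0.556). From Dox750 to Dox1000 the third alone passed, as higher (0.38, adjusted p = 0.028). The step from Dox500 to Dox750 was 0.23 (adjusted p = 0.0322), and it also passed on the second (0.33, adjusted p = 0.00971) and on the third (0.41, adjusted p = 0.0395) brightest probe. On the brightest probe it was lost when any 1 Dox750 replicate, or Dox500 replicate 1, 3 or 4, was left out (0.21 to 0.24, adjusted p = 0.0564 to 0.0852).

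PSMB9, the subunit that takes the caspase-like position, dipped in Dox500 as did TAP1, its neighbour across the shared upstream stretch shown above. In Ramos it read 9.98, 9.77, 9.99 and 9.80, in Dox100 10.26, 10.39, 10.13 and 10.16, and in Dox250 10.09, 10.06, 10.13 and 10.09. Both resistant lines lay above Ramos. In Dox500 it read 9.54, 9.58, 9.51 and 9.60, below every other array of the series. In Dox750 it read 10.08, 10.26, 10.11 and 9.98, overlapping with Ramos, and in Dox1000 10.27, 10.27, 10.28 and 10.30. The changes against Ramos were 0.35 ± 0.07 in Dox100 (adjusted p = 0.000327), 0.21 in Dox250 (adjusted p = 0.0201), -0.33 in Dox500 (adjusted p = 0.000641), 0.22 in Dox750 (adjusted p = 0.0125) and 0.39 in Dox1000 (adjusted p = 6.99e-05). Its step from Dox250 to Dox500 was -0.54 (adjusted p = 2.02e-05), and it rose by 0.55 from Dox500 to Dox750 (adjusted p = 2.77e-05). From Dox750 to Dox1000 its change of 0.17 did not pass (adjusted p = 0.0898), but it did without Dox750 replicate 2 (0.22, adjusted p = 0.0381). The Dox250 call against Ramos was lost without Ramos replicate 2 or 4 or Dox250 replicate 3 (0.17 to 0.20, adjusted p = 0.0501 to 0.0737). The Dox750 call was lost without Ramos replicate 2 or Dox750 replicate 2 (0.19 and 0.17, adjusted p = 0.05 and 0.0597). A second, dimmer PSMB9 probe gave 0.10, -0.14, -0.29, 0.27 and 0.02 from Dox100 to Dox1000 and passed in none, with a step of -0.15 from Dox250 to Dox500 between overlapping arrays that did not pass (adjusted p = 0.558) and a rise from Dox500 to Dox750 that did (0.56, adjusted p = 0.0224). Across all 24 arrays r between PSMB9 and TAP1 was 0.83, a description over 6 lines that each give 4 points. The change of PSMB9 was below that of TAP1 in all 5 lines, by 0.33 to 0.63 (adjusted p = 0.04 by permutation in each). The calls in Dox750 and Dox1000 were lost when any 1 Ramos array was left out (adjusted p = 0.0714 to 0.08 by permutation). The differences were then -0.50 to -0.55 in Dox750 and -0.43 to -0.47 in Dox1000. With 1 array fewer the permutation test has fewer splits and can miss the threshold even where arrays do not overlap.

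PSMB10 takes the trypsin-like position. Read from its only probe, it did not rise in any line. In Ramos it read 12.84, 12.56, 12.48 and 12.57, and in Dox100 12.36, 12.28, 12.32 and 12.24, all below Ramos. In the other lines the means were 12.40, 12.49, 12.60 and 12.56 from Dox250 to Dox1000, each overlapping with Ramos. It fell by 0.32 ± 0.09 in Dox100 (adjusted p = 0.00747), and the changes of -0.22, -0.12, -0.01 and -0.06 in the lines from Dox250 to Dox1000 did not pass. Without Ramos replicate 3 or Dox250 replicate 1 the Dox250 change passed (-0.26 and -0.25, adjusted p = 0.0348 and 0.0499). It also passed with the deposited log2 values and without background correction (-0.21, adjusted p = 0.0277 in both). The same held with an intensity trend (adjusted p = 0.0243) and with detection on all 24 arrays (adjusted p = 0.0479). With median scaling both Dox250 (-0.32, adjusted p = 0.0136) and Dox500 (-0.27, adjusted p = 0.0317) passed.

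The constitutive subunits give the comparison that the immunoproteasome calls for, since the new subunits take their places. PSMB5, which PSMB8 replaces, changed by 0.21, 0.20, 0.22, 0.00 and -0.07 from Dox100 to Dox1000 and passed in the first 3 lines. PSMB6, which PSMB9 replaces, changed by 0.15, 0.22, 0.22, 0.29 and 0.14 and passed in Dox250, Dox500 and Dox750. PSMB7, which PSMB10 replaces, changed by 0.21, 0.28, 0.23, 0.27 and 0.13 and passed in all but Dox1000. The change of PSMB8 exceeded that of PSMB5 by 0.17 in Dox250, 0.54 in Dox750 and 0.64 in Dox1000 (adjusted p = 0.04 by permutation in each). The differences of 0.27 in Dox100 (adjusted p = 0.0769 by permutation) and 0.09 in Dox500 (adjusted p = 0.193 by permutation) did not pass. PSMB9 and PSMB6 differed in Dox500 alone, where PSMB9 fell relative to PSMB6 by 0.55 (adjusted p = 0.04 by permutation). Their difference was 0.20, -0.01, -0.06 and 0.25 in Dox100, Dox250, Dox750 and Dox1000. PSMB10 was lower relative to PSMB7, with differences of -0.53, -0.50, -0.36 and -0.28 from Dox100 to Dox750 (adjusted p = 0.04 by permutation in each). In Dox1000 it was -0.19 (adjusted p = 0.313 by permutation). With 1 array left out, the PSMB8 call in Dox250 was lost for any Dox250 array, and the PSMB10 calls were lost in Dox500 for any Ramos array or Dox500 replicate 1 or 4, and in Dox750 for any Dox750 array (adjusted p = 0.0714 to 0.08 by permutation). The PSMB8 difference passed in Dox100 without Dox100 replicate 2 (0.33) and with median scaling (0.28, adjusted p = 0.0385 by permutation in both), and the PSMB9 difference in Dox1000 without Ramos replicate 3 (0.32, adjusted p = 0.0435 by permutation). The PSMB8 calls in Dox750 and Dox1000 and the PSMB10 calls in Dox100 and Dox250 held with each array left out. With 1 array fewer the permutation test has fewer splits and can miss the threshold even where arrays do not overlap. A loss there need not mean a smaller difference.

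**Figure D3:**
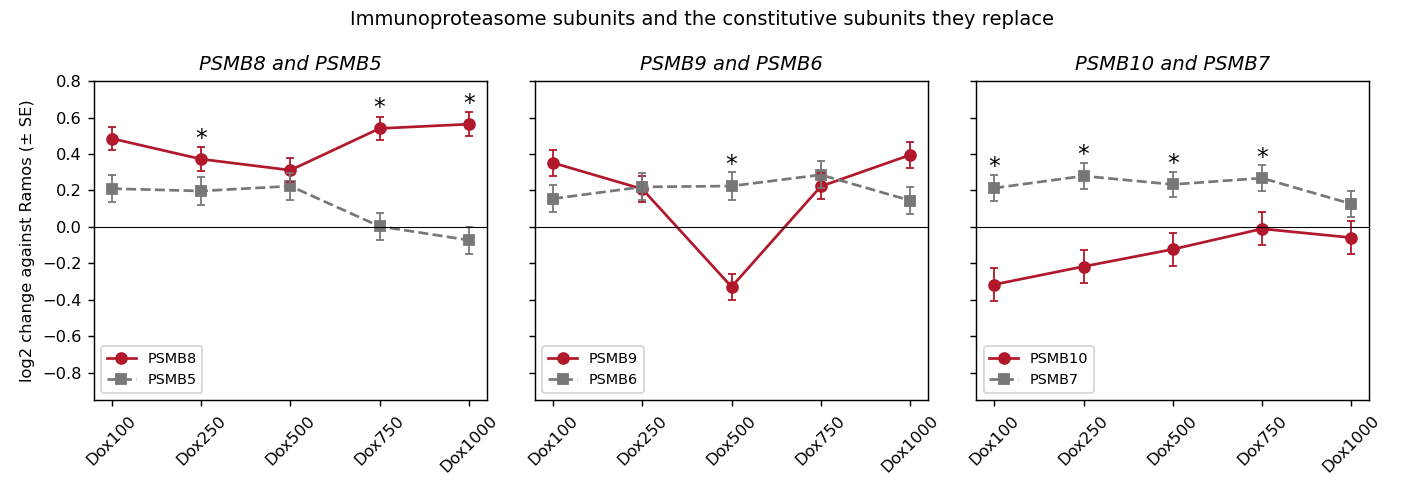
Log2 change against Ramos (y axis, ± SE from limma, n = 4 arrays per line) of each immunoproteasome subunit (red circles) and the constitutive subunit it replaces (grey squares) in the 5 resistant lines (x axis). Stars mark lines where the 2 changes differ at an adjusted p under 0.05 in the exact permutation test; PSMB8 stands above PSMB5 in Dox750 and Dox1000, and PSMB10 below PSMB7 from Dox100 to Dox750.

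PSME2 of the PA28 ring, read from its only probe, was higher than Ramos in 3 lines, and PSME1 on its brightest probe in none. PSME2 was higher in Dox100 (0.29 ± 0.08, adjusted p = 0.00657), Dox750 (0.42, adjusted p = 0.000224) and Dox1000 (0.29, adjusted p = 0.00557). In Ramos it read 12.72, 12.55, 12.81 and 12.62, in Dox500 12.71, 12.72, 12.59 and 12.73, and in Dox750 13.20, 13.06, 12.99 and 13.12. Dox500 overlapped with Ramos, and Dox750 lay above both. The arrays of Dox1000 read 13.02, 12.68, 12.99 and 13.15 and overlapped with Ramos, and the Dox1000 call was lost with median scaling (0.14, adjusted p = 0.256) and with only the 8 arrays compared (adjusted p = 0.0549). The changes in Dox250 and Dox500 were 0.16 (adjusted p = 0.117) and 0.02 (adjusted p = 0.895), and the step from Dox500 to Dox750 was 0.40 (adjusted p = 0.0044). PSME1 in Ramos read 13.14, 13.11, 13.06 and 13.21, and in Dox500 12.89, 12.92, 12.79 and 12.86. It passed as lower than Ramos in Dox500 alone (-0.27 ± 0.07, adjusted p = 0.00197). Its changes in the other lines from Dox100 to Dox1000 were 0.14, -0.15, 0.05 and 0.08. In Dox250 all its arrays lay below Ramos, and the change passed with median scaling (-0.30, adjusted p = 0.00274) and an intensity trend (adjusted p = 0.0309). It also passed there with the deposited log2 values and without background correction (-0.15, adjusted p = 0.039 in both). The Dox100 change passed as higher with an intensity trend (0.14, adjusted p = 0.0473). It fell by 0.30 from Dox100 to Dox250 (adjusted p = 0.00417) and rose by 0.31 from Dox500 to Dox750 (adjusted p = 0.00472). Its dimmer probe had changes against Ramos from 0.02 to 0.30 that did not pass, and with the mean over probes the Dox500 change of PSME1 was -0.12 (adjusted p = 0.183) and its step from Dox500 to Dox750 was 0.19 (adjusted p = 0.103), neither passing. With that mean PSME1 did pass as higher in Dox100 (0.22, adjusted p = 0.0187) and Dox1000 (0.18, adjusted p = 0.0432). PSME1 stood below PSME2, relative to Ramos, by 0.32 in Dox250, 0.28 in Dox500 and 0.37 in Dox750 (adjusted p = 0.04 by permutation in each), while the differences of 0.15 in Dox100 and 0.21 in Dox1000, in the same direction, did not pass. Each of the 3 calls was lost when any 1 array of its resistant line was left out (adjusted p = 0.0769 by permutation). The differences were then -0.28 to -0.33 in Dox250, -0.27 to -0.29 in Dox500 and -0.35 to -0.39 in Dox750. With 1 array fewer the permutation test has fewer splits and can miss the threshold even where arrays do not overlap. The Dox100 difference passed without Ramos replicate 3 (-0.22, adjusted p = 0.0435 by permutation).

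**Figure D4:**
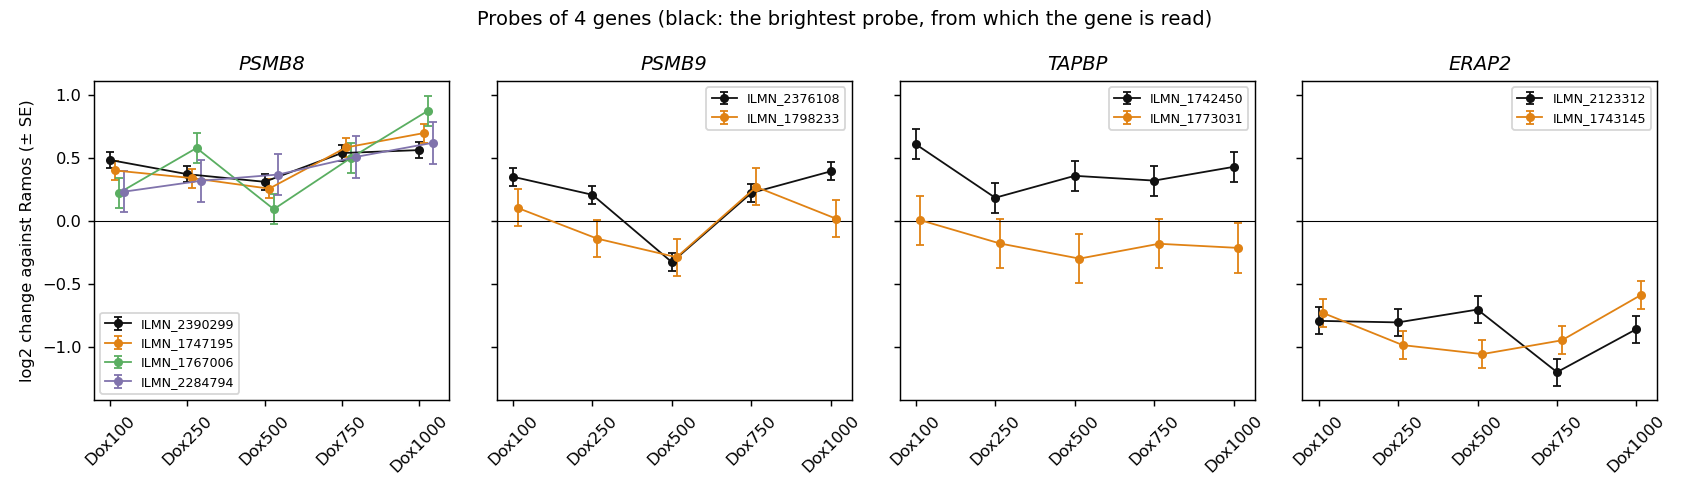
Log2 change against Ramos (y axis, ± SE from limma, n = 4 arrays per line) of every probe of PSMB8, PSMB9, TAPBP and ERAP2 that passed the detection filter, in the 5 resistant lines (x axis). Black marks the brightest probe of each gene; the probes of PSMB8 and of ERAP2 share their sign in all 5 lines, and the second TAPBP probe lies near or below 0.

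Over the 10 genes, 5 were higher and 2 lower than Ramos in Dox100, where 24.1% of all measured genes were higher and 22.2% lower. In Dox250 there were 3 higher and 1 lower (23.9% and 25.5% of all genes), and in Dox500 2 higher and 3 lower (25.2% and 23.2%). In Dox750 there were 5 higher and 1 lower (26.8% and 25.9%), and in Dox1000 also 5 and 1 (27.6% and 29.7%). The 10 genes thus had a larger share of higher calls than all genes in Dox100, Dox750 and Dox1000, and a share near that of all genes or below it in Dox250 and Dox500. The median change of the 10 genes was 0.22, 0.10, 0.02, 0.25 and 0.28 from Dox100 to Dox1000, and that of all genes lay between -0.02 and 0.01. Without Ramos replicate 2 or Dox750 replicate 2 the count higher in Dox750 was 3, and without Dox500 replicate 3 the count higher in Dox500 was 1. The count lower in Dox250 was 2 without Ramos replicate 3 or Dox250 replicate 1. These 5 comparisons share the Ramos arrays.

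Between successive lines, none of the 10 genes rose and 3 fell from Dox100 to Dox250 (TAP1, TAPBP and PSME1), where 5.21% of all genes rose and 8.25% fell. From Dox250 to Dox500 none rose and 2 fell (TAP1 and PSMB9), with 7.86% and 6.81% of all genes. From Dox500 to Dox750, a step in which 3.98% of all genes rose and 4.02% fell, 5 of the 10 rose (TAP1, PSMB8, PSMB9, PSME1 and PSME2) and ERAP2 fell. In the last step 12.1% of all genes rose and 11.7% fell, and ERAP2 alone passed among the 10, upward. Without Dox1000 replicate 3, TAP2 also passed there (-0.25, adjusted p = 0.049) and ERAP2 did not. The class I chains dipped at the same place: 4 of 5 measured (HLA-B, HLA-E, HLA-F and B2M) fell from Dox250 to Dox500, with a median of -0.32 over the 5, and 2 of 5 (HLA-E and HLA-F) rose from Dox500 to Dox750. Against Ramos all 5 were higher in every line except Dox500, where HLA-E did not pass (0.04, adjusted p = 0.666). In Dox1000 HLA-F was higher by 1.57, HLA-B by 1.21 and HLA-C by 0.95.

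Known regulators of these genes were measured for 8 of 10 listed. IRF9, the DNA-binding subunit of the complex that recognises the response element, was higher by 1.45 ± 0.12 in Dox100, 1.68 in Dox250, 1.66 in Dox500, 1.96 in Dox750 and 2.17 in Dox1000 (adjusted p = 6.09e-13 in Dox1000). Its step from Dox250 to Dox500 was -0.01 ± 0.12. The part of IRF9, or of the regulators below, in the levels of TAP1, PSMB9 and the other genes was not tested. IRF1, which binds the TAP1 and PSMB9 promoter in other human cells, changed by 0.28 in Dox100 (adjusted p = 0.119), 0.49 in Dox250 (adjusted p = 0.00788), 0.36 in Dox500 (adjusted p = 0.0466), 0.70 in Dox750 (adjusted p = 0.000305) and 1.06 in Dox1000 (adjusted p = 1.78e-06). NLRC5, the class I transactivator, was undetected on all Ramos arrays. It was detected on 2 of 4 arrays in Dox100, 1 in Dox750 and 3 in Dox1000, and its probe entered the tests through Dox1000 alone. In Dox100 it was at least 1.09-fold higher than Ramos (adjusted p = 0.0365), near background. It did not pass in the other lines, with an adjusted p of 0.167 in Dox1000. Of the 8 regulators, 2 were higher in each line, and 1, 2, 1, 3 and 1 were lower from Dox100 to Dox1000. The share higher was near that of all genes, which ran from 24.1% in Dox100 to 27.6% in Dox1000.

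In Dox1000, where 27.6% of all genes were higher and 29.7% lower, genes of the rest of the proteasome were more often lower than higher. Of 15 subunits of the 19S cap, which unfolds and feeds substrates, 3, 3, 5 and 6 were higher from Dox100 to Dox750 and 0, 1, 1 and 1 lower. Of all genes 24.1%, 23.9%, 25.2% and 26.8% were higher in these lines and 22.2%, 25.5%, 23.2% and 25.9% lower, so that the share of the 19S cap that was higher did not exceed the background in Dox100 and Dox250. In Dox1000 only PSMD4, the ubiquitin receptor (0.39, adjusted p = 5.77e-05), was higher and 6 were lower, among them PSMD3 (-0.47 ± 0.13), PSMC2 (-0.45 ± 0.07) and PSMD11 (-0.42 ± 0.12). From Dox750 to Dox1000 none of the 15 rose and 8 fell, with a median of -0.26. Of 10 other subunits of the 20S core, 1, 1, 0, 3 and 2 were higher and 1, 1, 2, 1 and 4 lower from Dox100 to Dox1000. In Dox1000 PSMA1 rose by 0.52 ± 0.08, and PSMB2 and PSMA6 fell by 0.30 and 0.29. Of 7 assembly factors and other activators, 4 were lower in Dox1000 and none higher, including PSMG1 (-0.44), POMP (-0.28), the chaperone that helps build the immunoproteasome, and PSMG4 (-0.25). In the lines from Dox100 to Dox750, 1 of these 7 was higher in each, a smaller share than over all genes, and 0, 1, 2 and 0 were lower.

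Partners of tapasin and of the trimming peptidases were also measured. TAPBPL, the tapasin relative that edits peptides, was higher in all 5 lines, by 0.92, 0.75, 0.87, 0.96 and 1.26 from Dox100 to Dox1000 (SE 0.13). Calreticulin (CALR), the chaperone that brings class I molecules to tapasin, was higher by 0.51, 0.30, 0.46 and 0.35 from Dox100 to Dox750, and its change in Dox1000 was -0.02 (adjusted p = 0.869). CANX did not pass in any line. Of 6 other peptidases that trim or destroy peptides in the cytosol, 1, 1, 0, 1 and 1 were higher and 1, 2, 2, 3 and 4 lower from Dox100 to Dox1000. Over all genes the share higher ran from 23.9% to 27.6% and the share lower from 22.2% to 29.7% in these lines. In Dox1000 TPP2 fell by 0.89 ± 0.17 and BLMH by 0.30 ± 0.09, and LAP3, an interferon-inducible leucine aminopeptidase, was higher by 0.41 ± 0.10. LAP3 was higher also in Dox100, Dox250 and Dox750 (0.57, 0.69 and 0.67), and in Dox500 its change was 0.23 (adjusted p = 0.0715).

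**Figure D5:**
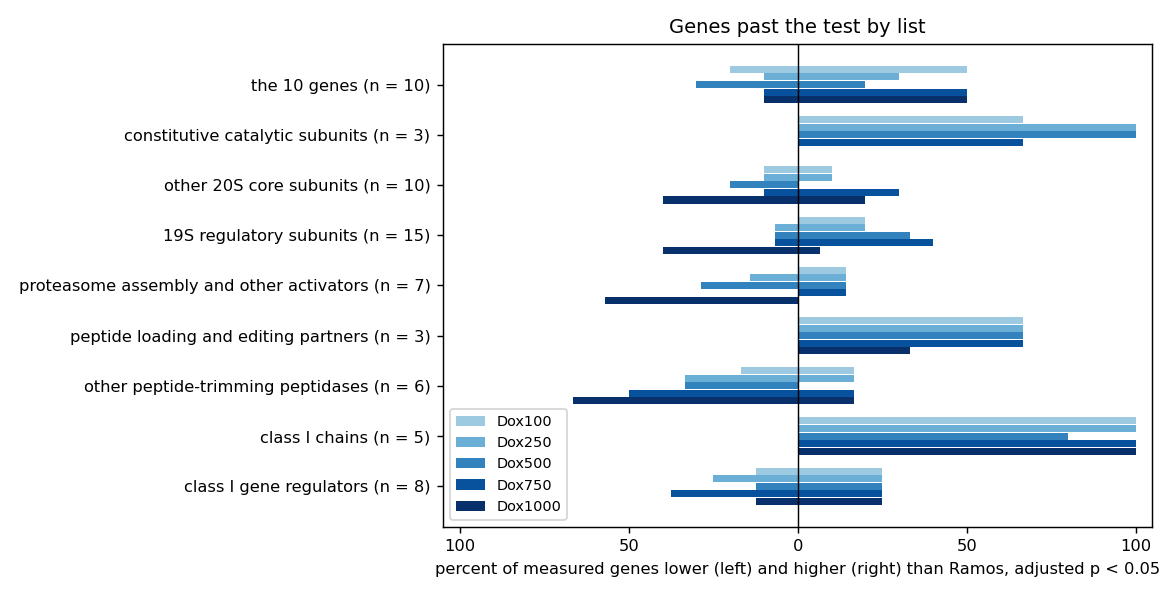
Percent of the measured genes of each list (rows) that were lower (left) or higher (right) than Ramos at an adjusted p under 0.05 (x axis), for the 5 resistant lines (colours, light to dark from Dox100 to Dox1000). In Dox1000 the 10 genes reach further to the right than to the left, and the 19S cap and assembly lists further to the left.

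The genes whose levels followed TAP1 and ERAP2 most closely were sought among genes whose line means spanned at least 1 on the log2 scale, since these were the members with the widest spans. For TAP1, of 1467 such genes, the 5 with the highest Pearson r over 24 arrays were MLKL (0.94), CASP1 (0.94), SAMD9L (0.93), RCN1 (0.93) and IFI6 (0.91). For ERAP2, of 1466 genes, they were CDKN2AIPNL (0.98), ZMAT3 (0.98), ZNF14 (0.98), HYPK (0.97) and SHROOM4 (0.97). Each r rests on 6 lines of 4 arrays and is a description. Among the 10 genes themselves r was 0.81 between TAP1 and PSMB8, 0.76 between TAP1 and PSME2, 0.73 between PSMB9 and PSME1 and -0.81 between ERAP2 and PSMB8.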

How the data were processed

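RNA of 24 cultures, 4 per line, was measured on Illumina bead arrays. The authors deposited intensity as unnormalized mean signals per probe, and the deposited p-values beside them are detection p-values, both per the file headers. The authors' deposited log2 values matched log2 of quantile-normalized intensity without background correction. The tool lumi is named, with no version, per the submitters' processing notes. Groups came from the sample titles. For the genome build the sources used here give nothing.

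Intensities were background-corrected (limma nec, offset 16, negative controls inferred from the detection p-values), quantile-normalized and log2-transformed. The filter kept probes with a detection p below 0.01 on 3 or more of the 4 arrays of any line (15765 of 47323 probes, 33.3%). Each gene took the values of its brightest such probe. One limma 3.58.1 model in R 4.3.3, with a mean per line over 24 arrays, gave 9 comparisons with Benjamini-Hochberg adjustment over all kept probes. Differences of changes between 2 genes were tested by exact permutation of arrays (70 splits, two-sided) and adjusted over 35 tests. These include the tests of ERAP1 with ERAP2, which are not read. Gene symbols came from the platform annotation, updated through Entrez identifiers for 30074 of 30113 probes with 1 symbol. For a probe undetected on all arrays of a line, "at least N-fold" sets the mean of the other line against the mean, over the dim line's arrays, of the lowest detected signal or the probe's own value, whichever was higher. The procedure was tested on simulated data.

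The 10 genes and all lists were chosen with earlier results of these data known. Named were all 10 genes, PSMB5, PSMB6, PSMB7, NLRC5, IRF1, and up to 3 genes per other list with the largest change in Dox1000 among those past the threshold with no overlap between the 2 lines' arrays. HLA-E, B2M, CALR, CANX, PSMD4, CD3E and other markers were named after their values were seen. Of the listed genes 24 were not measured or had no kept probe. Other settings tried were, for the values, the deposited log2 table, median scaling and omission of background correction. For the probes they were every probe, those detected on all 24 arrays, and a mean of all kept probes per gene. For the test they were a stricter threshold of 0.01, an intensity trend in eBayes, a fit to the 8 arrays of a comparison, a replicate block, and omission of single arrays.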

Additional observations from a re-analysis of the deposited data

Results flagged for a closer look

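In 4 of 78 groups of 4 arrays (13 genes in 6 lines) 1 array lay apart from the other 3 by Dixon's test, and chance gives about 1 in 20. TAP2 in Dox1000 replicate 3 read 10.12, and the other 3 arrays read 9.91 to 9.93. PSME2 in Dox500 replicate 3 read 12.59 against 12.71 to 12.73. PSMB7 in Dox500 replicate 1 read 12.86 against 12.66 to 12.68, and in Dox750 replicate 3 it read 12.83 against 12.72 to 12.73.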

How the results depend on the processing

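Of 40 changes of the 10 genes that passed, 27 passed in the same direction in every alternative run, among them all 5 of ERAP2 and all 5 of PSMB8 against Ramos, and no change reversed. The count lower in Dox250 against Ramos was 1, and it was 3 without background correction, with median scaling, with the deposited values and with an intensity trend, and 2 with detection on all 24 arrays. The count higher in Dox500 was 2, and it was 1 with median scaling, no filter, the mean over probes or an adjusted p under 0.01. The count higher in Dox750 was 5, and 3 with median scaling or an adjusted p under 0.01. For Dox1000 against Dox750 the count higher was 1, and 0 with median scaling, no filter, only the 8 arrays compared or an adjusted p under 0.01. ERAP2's fall from Dox500 to Dox750 was the only call downward and gave 0 with the mean over probes. The count lower from Dox100 to Dox250 was 3, and 1 with only the 8 arrays compared. With 1 array left out, the count higher in Dox750 ran from 3 to 6, lower in Dox250 from 1 to 2, higher in Dox500 from 1 to 2, higher in Dox1000 against Dox750 from 0 to 1, lower there from 0 to 1, and gene pairs of unequal change in Dox500 from 3 to 4, against 5 with all arrays. The cause of these losses was not tested, and the pair test has fewer splits with 1 array left out. The 5 pairs include ERAP1 with ERAP2, whose difference was not read above. Median scaling moved the median of all genes against Ramos to -0.13, -0.14, -0.11 and -0.13 from Dox250 to Dox1000. The median of the 10 genes in Dox500 moved from 0.02 to -0.13 with it, and PSMB9 in Dox250 and Dox750 did not pass (0.09 and 0.12). Same-numbered arrays of different lines did not deviate together (r from -0.24 to 0.18, 4 of 24 arrays best with their own number). The replicate block changed none of the 90 tests of the 10 genes, with 5 higher in Dox1000 as without it. ERAP1 was left with no value by detection on all 24 arrays. Signal near background limits ERAP1, NLRC5 and the dimmer probes of TAPBP, PSMB8 and PSME1.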
